A study of Mus musculus with 11 samples.

Results

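Transcript levels were compared between 3T3-L1 cultures given t10c12 CLA for 8 h and cultures given the same fatty acid for 4 h. The comparison used the 2 arrays labelled CLA, 8 hours and the 2 arrays labelled CLA, 4 hours, which are 4 of the 11 arrays of the series. 3T3-L1 cells are mouse fibroblasts able to turn into fat cells under hormone treatment, and the labels call these cultures preadipocytes. Trans-10,cis-12 CLA is conjugated linoleic acid with 1 trans and 1 cis double bond, and linoleic acid (LA), an isomer with no conjugated bonds, was the study's control. The direction of each change was checked in cultures given LA, with 2 arrays at 8 h and 1 array at 4 h. The labels name no genetic change and give no dose, and no untreated culture is among the 11 arrays, so each value describes 8 h against 4 h with a fatty acid present at both times. The question put to the data was which transcripts changed early in cells given CLA, and whether cells given LA moved the same way over the same hours.

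Preadipocytes are fibroblast-like cells, and early responses to a medium change run in waves. Immediate early genes such as Fos and Egr1 and inflammatory genes under the transcription factor NF-kB are induced first and are then shut off by their own inhibitors. Genes for the actin cytoskeleton, many under serum response factor (SRF) and its partner MRTF, genes of sterol synthesis under SREBP2, and genes of amino acid supply under ATF4 are induced on a slower scale. In fat cell precursors, strong actin and SRF activity is known to go with a fibroblast state, and PPARG drives the adipocyte state.

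Signals were quantile normalised over all 11 arrays, and a level below is a normalised intensity, which has no absolute unit and is not compared between genes. Differences are log2 values at 8 h minus 4 h, with standard errors from a limma fit to all 11 arrays, and a gene is called when its Benjamini-Hochberg adjusted p over all 12498 genes is under 0.05. Each CLA group has 2 arrays, and that number limits the precision. Replicates are labelled biological, but nothing says they came from separate cultures, and the p-values then reflect the spread between these samples alone, which may be technical. Over whole cultures, fewer cells of a type and less RNA per cell cannot be told apart.

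The cultures carried the markers of their label. Of 10 preadipocyte and fibroblast markers, 9 were above the array background of 8.89, including Vim, Col1a1, Pdgfra and Dlk1, and Cd34 was not. The adipocyte markers Adipoq, Cidec, Lep and Retn were at or below background on all 4 CLA arrays, while Lpl and Fabp4 were above it. The lymphocyte marker Cd3e, the endothelial marker Pecam1 and the muscle marker Myog were at 0. Of 7 lymphocyte markers, Cd8a was above background, with 13.9 and 27.9 at 8 h and 19.4 and 23.0 at 4 h, and 3 of 7 endothelial markers (Cdh5, Kdr, Tek) passed it on some arrays. Of 7 epithelial markers 5 were above background, and their sum, most of it Epcam, was 213 and 206 at 8 h, against 205 and 229 at 4 h. Summed over 10 macrophage markers, of which 7 were above background, the level was 627 and 739 at 8 h, against 861 and 838 at 4 h. Summed skeletal muscle markers (3 of 7 above background) were 89.5 and 99.8 at 8 h, against 65.5 and 44.8 at 4 h. Summed osteoblast and chondrocyte markers (6 of 6) were 598 and 645 at 8 h, against 363 and 349 at 4 h, most of it Sox9. On the single LA 4 h array the macrophage marker Csf1r was at 1171, against 109 to 426 on all other arrays of the series. The deposited median intensity was 20.1 and 12.8 on the CLA 8 h arrays and 14.4 and 15.1 on the CLA 4 h arrays. It was 18.9 on the LA 4 h array and 13.9 and 14.3 on the LA 8 h arrays. The CLA 8 h arrays also stood apart from each other on the first principal component of all genes, at −15.1 and 8.41, against −43.9 and −38.8 for CLA 4 h, and 815 genes differed by more than 1 on the log2 scale between these replicates, against 721 between the CLA 4 h replicates and 712 between the LA 8 h replicates. The 3′ to 5′ signal ratio of Gapdh, a measure of RNA integrity, was 0.883 and 1.01 at 8 h and 0.878 and 0.937 at 4 h. The part of these differences in the results was not tested.

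Of the 12498 genes, 1591 (12.7%) were called between CLA 8 h and CLA 4 h, 905 (7.24%) higher and 686 (5.49%) lower at 8 h, and 313 of them changed by 1 or more on the log2 scale. At an unadjusted p under 0.05 there were 3289 genes (26.3%). The median difference over all genes was 0.03. At 8 h, genes of the actin cytoskeleton, of sterol synthesis, of amino acid supply and tRNA charging, and of protein folding were among those that rose. Chemokines, NF-kB pathway genes, interferon induced genes and several early response and clock genes were among those that fell. Arrays at 8 h all lay above those at 4 h in 29% of all genes and all below in 23.5%, so that an absence of overlap with 2 arrays on each side is common. All 1591 called genes had such arrays, so an absence of overlap, where given below for a called gene, adds nothing to its call. With the values taken as deposited, without scaling between arrays, 773 genes were called, 627 higher and 146 lower, and the median over all genes was then 0.20. Leaving out CLA 4 h replicate 1 left 722 called genes, and leaving out CLA 4 h replicate 2 left 810.

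The promoters of a few called genes carry short motifs of transcription factors, not all of them named above. Of these promoters, 7 are printed here to show the letters in place. Each sequence is from RefSeq (assembly GRCm38.p6) and runs 5′ to 3′ on the gene's strand for 300 bases, 250 before the annotated start and 50 after it. Capitals mark the motif. The motifs and the genes shown were chosen after the values were seen, and a match is a description of letters and not of binding. The first is Myl9 (chr2:156775214-156775513, + strand), a myosin light chain gene that rose, with a CArG box, the motif of SRF. Cxcl1 (chr5:90890995-90891294, + strand) and Nfkbia (chr12:55492598-55492897, − strand) both fell, and carry the NF-kB site. In Cxcl1, 2 matches on opposite strands overlap.
Myl9: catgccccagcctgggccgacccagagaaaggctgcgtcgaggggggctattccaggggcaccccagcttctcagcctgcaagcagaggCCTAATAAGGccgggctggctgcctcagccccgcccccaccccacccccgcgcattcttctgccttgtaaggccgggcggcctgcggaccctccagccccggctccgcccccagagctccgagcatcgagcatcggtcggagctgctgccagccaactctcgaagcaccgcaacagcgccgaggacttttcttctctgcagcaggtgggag
Cxcl1: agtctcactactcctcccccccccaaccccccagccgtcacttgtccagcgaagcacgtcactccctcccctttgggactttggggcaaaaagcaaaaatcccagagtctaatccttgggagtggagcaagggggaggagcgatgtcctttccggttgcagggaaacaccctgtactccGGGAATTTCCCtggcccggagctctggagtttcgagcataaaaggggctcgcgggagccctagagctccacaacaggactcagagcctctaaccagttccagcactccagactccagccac
Nfkbia: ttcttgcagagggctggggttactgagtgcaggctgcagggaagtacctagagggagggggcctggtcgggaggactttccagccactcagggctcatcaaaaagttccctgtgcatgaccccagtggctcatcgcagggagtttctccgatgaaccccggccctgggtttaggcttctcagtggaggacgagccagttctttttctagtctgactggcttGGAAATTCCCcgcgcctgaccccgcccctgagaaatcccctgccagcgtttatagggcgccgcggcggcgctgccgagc

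The interferon-stimulated response element, searched on both strands as GAAA, NN and GAAA in a row, occurs 2 times in Ifit1 (chr19:34640639-34640938, + strand) and 2 times in Ifit3 (chr19:34583279-34583578, + strand), interferon induced genes that fell. In both it is printed as it reads on the gene's strand, which is the reverse complement.
Ifit1: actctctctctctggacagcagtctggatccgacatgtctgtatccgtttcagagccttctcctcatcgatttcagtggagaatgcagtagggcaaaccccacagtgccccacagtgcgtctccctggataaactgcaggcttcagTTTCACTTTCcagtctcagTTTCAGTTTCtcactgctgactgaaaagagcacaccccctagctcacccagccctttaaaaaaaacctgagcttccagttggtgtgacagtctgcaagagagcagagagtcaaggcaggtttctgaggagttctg
Ifit3: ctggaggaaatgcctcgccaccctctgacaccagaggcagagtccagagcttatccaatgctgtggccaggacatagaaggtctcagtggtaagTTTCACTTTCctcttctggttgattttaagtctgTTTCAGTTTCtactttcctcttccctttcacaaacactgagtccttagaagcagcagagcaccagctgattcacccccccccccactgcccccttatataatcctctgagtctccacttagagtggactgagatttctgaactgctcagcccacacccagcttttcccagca

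Chac1 (chr2:119350992-119351291, + strand), an ATF4 target that rose, has 1 match to the C/EBP-ATF composite site, searched as TGATGNAA. Hmgcs1 (chr13:119690101-119690400, + strand), a sterol synthesis gene that rose, has 4 matches to the CCAAT box, the motif of NF-Y, searched as CCAAT. The motif of SREBP2 was not searched. Matches in both promoters lie on the opposite strand.
Chac1: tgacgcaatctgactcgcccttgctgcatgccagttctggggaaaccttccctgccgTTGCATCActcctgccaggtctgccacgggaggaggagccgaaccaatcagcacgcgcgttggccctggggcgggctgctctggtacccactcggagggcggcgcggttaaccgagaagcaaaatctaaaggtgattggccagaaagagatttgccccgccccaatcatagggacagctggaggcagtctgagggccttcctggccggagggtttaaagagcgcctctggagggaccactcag
Hmgcs1: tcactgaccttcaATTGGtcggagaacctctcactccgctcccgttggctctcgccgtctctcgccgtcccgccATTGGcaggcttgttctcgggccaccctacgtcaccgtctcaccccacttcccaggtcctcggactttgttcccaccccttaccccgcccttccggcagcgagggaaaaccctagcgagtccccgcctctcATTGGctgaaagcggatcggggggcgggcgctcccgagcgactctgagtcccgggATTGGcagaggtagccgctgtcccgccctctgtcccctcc

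Over the RefSeq promoter table of 27025 genes, the same windows held a CArG box in 1.81%, the NF-kB site in 1.55%, the interferon element in 3.99%, TGATGNAA in 4.51% and CCAAT in 41.1%. Among the actin and SRF genes with a promoter in that table, 6 of 19 (31.6%) held a CArG box, namely Actg1, Cnn2, Filip1l, Myl9, Srf and Vcl, and all 6 were called higher at 8 h. Of the NF-kB and STAT3 feedback genes, 5 of 12 (41.7%) held the NF-kB site and 4 of those 5 were called. Among cytokines and chemokines 5 of 10 (50%) held it, and 4 of those 5 were called: Csf1, Cxcl1 and Cxcl10 fell and Il6 rose. Interferon induced genes held their element in 9 of 14 (64.3%), of which 4 were called. In the integrated stress response list 8 of 23 (34.8%) held TGATGNAA, of which 7 were called: Asns, Chac1, Fgf21, Herpud1 and Trib3 higher, and Nupr1 and Vldlr lower. All 17 cholesterol genes with a promoter in the table held CCAAT, of which 10 were called. Calls were frequent in these lists as a whole, against 12.7% of all genes. Of measured members, 17 of 23 actin genes and 14 of 21 cholesterol genes were called higher. Called lower were 9 of 16 NF-kB genes, 7 of 17 interferon genes and 6 of 14 cytokines, with 1 cytokine higher. In the stress response list 11 of 25 were higher and 2 lower. Apart from the cholesterol list, these lists were assembled largely from known targets of the same factors. The shares describe the lists and are no separate evidence.

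**Figure D1:**
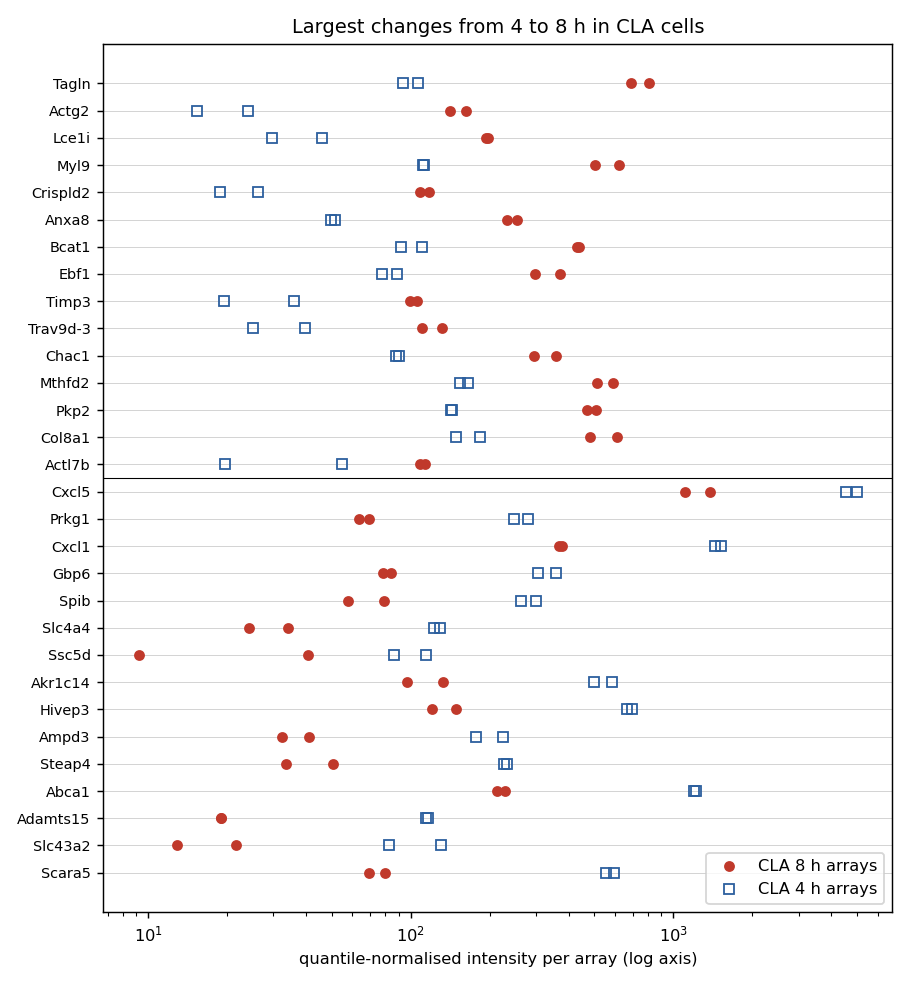
Normalised intensity on a log axis of the 15 largest called increases (above the line) and 15 largest called decreases (below it), with 1 point per array, filled circles for CLA 8 h and open squares for CLA 4 h. In all 30 genes the CLA 8 h arrays lie on one side of both CLA 4 h arrays, which the choice of genes required.

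The 15 largest called increases among genes reaching a mean level of 100 included 3 smooth muscle contractile genes, Tagln, Actg2 and Myl9, of which the first pair had the largest differences and Myl9 came after Lce1i. Tagln, which encodes the actin-binding protein transgelin, had levels of 693 and 811 at 8 h and 106 and 93.3 at 4 h. Actg2, the enteric smooth muscle actin, had 141 and 163 at 8 h and 23.9 and 15.4 at 4 h. Myl9 had 503 and 624 at 8 h and 112 and 113 at 4 h. In all 3 the 8 h arrays lay far above both 4 h arrays. The log2 differences were 2.89 ± 0.11 for Tagln (adjusted p = 2.22e-07), 2.86 ± 0.21 for Actg2 (1.197e-05) and 2.30 ± 0.12 for Myl9 (2.42e-06), which makes Tagln 7.40-fold higher at 8 h on the log2(level + 1.84) scale. Over 17 alternatives of the processing, Tagln stayed between 2.73 and 3.02 and kept its call in each.

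Ebf1, a transcription factor of fat cell and B cell development, had 371 and 298 at 8 h and 77.5 and 88.7 at 4 h (difference 1.98 ± 0.14, adjusted p = 8.83e-06). The branched-chain amino acid transaminase gene Bcat1 had 429 and 437 at 8 h against 110.0 and 91.7 at 4 h (2.09 ± 0.12, 3.06e-06). Mthfd2, a mitochondrial folate enzyme, had 514 and 589.6 against 165 and 154 (1.78 ± 0.12, 1.06e-05), and Chac1, which degrades glutathione, 294 and 358 against 87.5 and 90.2 (1.85 ± 0.13, 1.197e-05). For each of these 4 genes even the lower 8 h array was more than 3 times the higher 4 h array. The remaining increases were Anxa8 (2.22), a phospholipid-binding annexin, Crispld2 (2.25), the desmosome gene Pkp2 (1.76), the collagen gene Col8a1 (1.71), the metalloproteinase inhibitor Timp3 (1.88), and probe sets annotated to Lce1i (2.35), Trav9d-3 (1.87) and Actl7b (1.69). These 3 last names are those of a skin barrier gene, a T cell receptor segment and an actin-like gene of testis.

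The 15 largest called decreases were led by Scara5, a scavenger receptor that takes up ferritin. Its levels were 69.3 and 79.9 at 8 h and 592 and 554 at 4 h, a difference of −2.91 ± 0.17 (adjusted p = 3.12e-06), or 7.54-fold lower at 8 h. Abca1, which exports cholesterol to lipoproteins and is a target of the liver X receptors, had 213 and 228 at 8 h against 1199 and 1216 at 4 h (−2.44 ± 0.14, 2.42e-06). Both genes were far lower on both 8 h arrays than on either 4 h array. Cxcl1 had 367 and 378 at 8 h against 1514 and 1442 at 4 h (−1.98 ± 0.12, 3.12e-06), and Cxcl5, a chemokine of the same family that draws neutrophils, had 1385 and 1109 against 4533 and 4993 (−1.94 ± 0.11, 2.62e-06). Both chemokines were lower on each 8 h array than on either 4 h array.

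Among the other decreases were Prkg1 (−1.96), the cGMP-dependent protein kinase of smooth muscle, Hivep3 (−2.34), a zinc finger factor, the secreted protease Adamts15 (−2.50), the metalloreductase Steap4 (−2.42), the AMP deaminase Ampd3 (−2.39), the steroid dehydrogenase Akr1c14 (−2.23), the transporters Slc43a2 (−2.51) for amino acids and Slc4a4 (−2.07) for bicarbonate, the interferon induced GTPase Gbp6 (−1.997), the transcription factor Spib (−2.03) and Ssc5d (−2.23). Ssc5d rests on spread arrays, with 9.24 and 40.7 at 8 h and 115 and 86.6 at 4 h, and it lost its call in 6 of 17 alternatives. Steap4 lost it in 5 of 17. Of the other probe sets of these genes, 1 dim probe set of Hivep3 (1.02, at a mean level of 14.4) and 1 of Slc4a4 (0.51, at 8.21, below the array background) had differences of opposite sign, and the rest had negative ones.

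**Figure D2:**
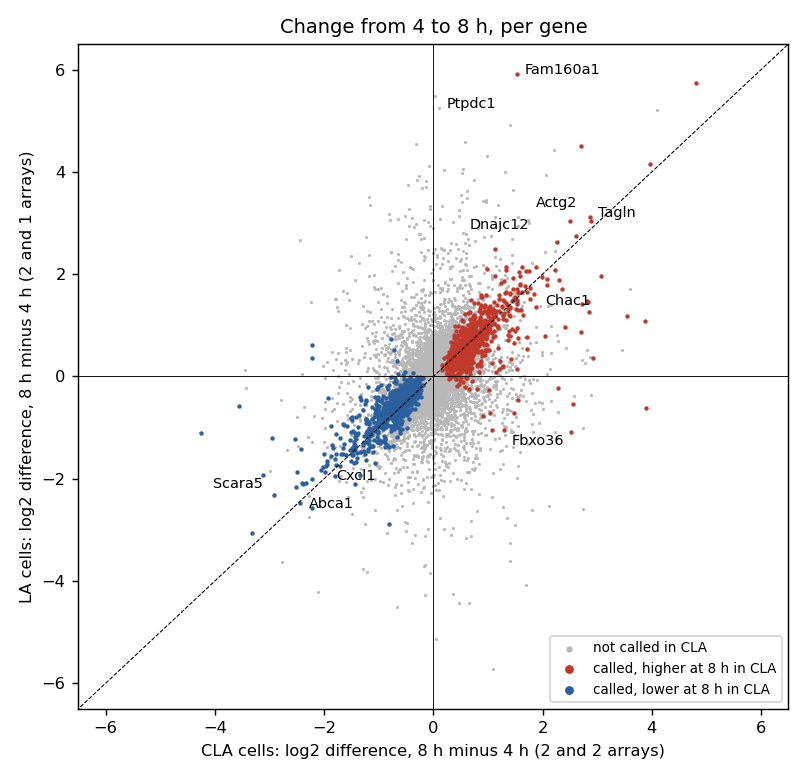
Log2 difference at 8 h minus 4 h in CLA cells (horizontal axis, 2 and 2 arrays) and in LA cells (vertical axis, 2 arrays and 1 array), with 1 point per gene for 12498 genes. Called genes in CLA cells lie mostly along the dashed line of equal change, and 1555 of 1591 have the same sign in LA cells.

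Cells given LA moved largely the same way over the same hours. In the same fit, 1491 genes (11.9%) were called between LA 8 h and the single LA 4 h array, 903 (7.23%) higher and 588 (4.7%) lower; without LA 8 h replicate 1 or 2 the count was 562 or 594. The CLA and LA comparisons share no array. Called in both with the same direction were 923 genes, 545 higher and 378 lower, which is 58.0% of the CLA list and 61.9% of the LA list, and 3 were called in opposite directions. Of the 1591 genes called in CLA cells, 1555 (97.7%) had the same sign in LA cells, against 72.5% of all genes. Across genes, which are not independent and share array, depth of signal and base composition, Pearson's r between both changes was 0.43 over all genes and 0.88 over the 1591. The 1591 were chosen by their CLA call, which leaves out CLA changes near 0 and raises r. The value of 0.88 is therefore no separate measure of agreement. The median change of the 905 increases was 0.59 in CLA cells and 0.56 in LA cells, and that of the 686 decreases was −0.68 in CLA cells and −0.60 in LA cells. These values hold after quantile normalisation. With the values as deposited, the median change over all genes was 0.20 in CLA cells and −0.17 in LA cells.

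The leading genes followed this pattern. Both LA 8 h arrays lay above the LA 4 h array in all 15 of the largest CLA increases and below it in 14 of the 15 largest decreases. In LA cells Tagln had 825 and 819 at 8 h and 97.9 at 4 h, a difference of 3.05, and Myl9 had 548 and 581 against 151 (1.89). Abca1 had 180.4 and 197 at 8 h against 1055 at 4 h in LA cells (−2.47), and Cxcl1 506 and 518 against 1884 (−1.88). The exception was Ssc5d, at 42.1 and 74.9 at 8 h and 43.3 at 4 h, so that the groups overlap in LA cells. A direct test of the difference between the CLA change and the LA change called 5 genes (0.04%), with 721 at an unadjusted p under 0.05 (5.77%), and each of the 5 turned on the value of the single LA 4 h array. The 95% interval of that difference was −0.53 to 0.21 for Tagln, −0.45 to 0.50 for Abca1 and −0.52 to 0.31 for Cxcl1. Differences between the fatty acids inside these intervals remain compatible with the values.

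**Figure D3:**
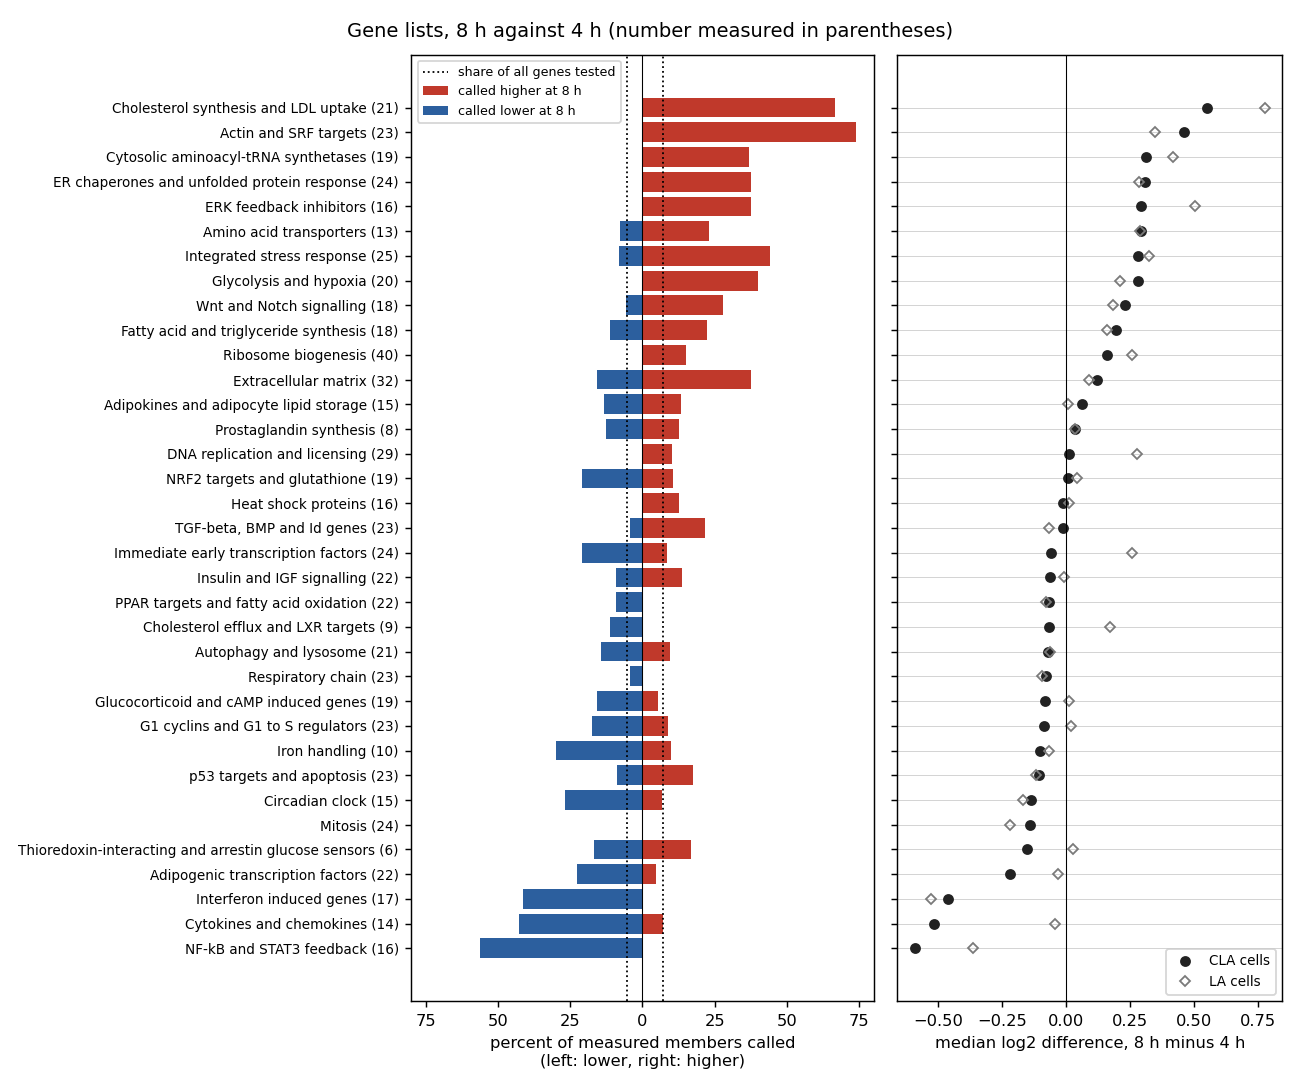
Left, percent of the measured members of 35 gene lists called higher (right of 0) or lower (left of 0) at 8 h in CLA cells, with dotted lines at the shares of all genes, 7.24% and 5.49%. Right, median log2 difference of each list in CLA cells (filled circles) and LA cells (open diamonds); the actin and cholesterol lists lie highest and the NF-kB list lowest in CLA cells.

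Genes were next described by 35 lists of known function, by counts that are read against 7.24% higher and 5.49% lower over all genes and, for most lists, by a median, which was 0.03 over all genes. Actin and SRF genes gave the largest share of calls, 17 of 23 higher and none lower, with a median of 0.46. Ccn2, the matricellular growth factor CTGF, had 1919 and 2258 at 8 h and 1004 and 854 at 4 h (1.17 ± 0.12, adjusted p = 1.03e-04). Acta2, smooth muscle alpha-actin, had 8257 and 8584 against 5100.0 and 5002 (0.74 ± 0.041, 2.42e-06), and the focal adhesion gene Vcl had 5032 and 4969 against 3477 and 3477 (0.52 ± 0.049, 6.20e-05). Their 8 h arrays lay above both 4 h arrays, by a smaller factor than Tagln. Srf itself was called at 0.46 ± 0.14 (0.0481). The cytoplasmic actin gene Actb (0.085, 0.413) and Ccn1 (−0.093, 0.313) were not called. The count of increases was 9 with arrays scaled to one common median, 10 without an intensity trend, and 11 without CLA 4 h replicate 1. The median of the list stayed between 0.39 and 0.64 in 17 alternatives. In LA cells 11 members were called higher and none lower, with a median of 0.35. The summed skeletal muscle markers given above were also higher at 8 h. Among them Acta1, skeletal alpha-actin, had 61.4 and 51.4 at 8 h and 32.7 and 14.1 at 4 h without passing, and Myog was at 0. Their part in this result was not tested.

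Extracellular matrix genes were called in both directions, 12 of 32 higher and 5 lower (median 0.12). The matricellular genes Thbs1 and Tnc were among those that rose. Thbs1 had 4263 and 4059.7 at 8 h and 1727 and 1605 at 4 h (1.32 ± 0.077, adjusted p = 2.69e-06), and Tnc, tenascin C, had 2056 and 1973 against 744 and 777 (1.40 ± 0.074, 2.42e-06). For both genes the 8 h arrays lay above both 4 h arrays. Of the secreted proteases, Adamts5 (1.61) and Adamts1 (0.89) rose and the collagenase Mmp13 fell (−1.21), and the fibronectin gene Fn1 rose (0.36). The main fibrillar collagens Col1a1 (0.020) and Col3a1 (0.072) were not called. Sox9, a cartilage transcription factor and the bright member of the osteoblast and chondrocyte markers, had 530.1 and 555 at 8 h and 301 and 290.0 at 4 h (0.87 ± 0.15, 0.00251). In LA cells Sox9 had 313 and 296 at 8 h against 265 at 4 h, and in CLA cells it was 332 and 250 at 12 h. Its part in the matrix results was not tested. Among TGF-beta and BMP genes 5 of 23 were higher and 1 lower (median −0.01). Inhba, the activin A subunit, was among them, with 105 and 86.5 at 8 h and 7.99 and 20.2 at 4 h (2.72 ± 0.34, 4.04e-04), and the receptor Tgfbr1 was the decrease (−0.67), with its call lost in 5 of 17 alternatives. Of 18 Wnt and Notch genes (median 0.23) 5 were higher, among them the Notch ligand Jag1 (0.72), the Notch target Hes1 (1.03) and Ccn5 (0.89). The decrease was Sfrp2, a secreted Wnt modulator, with 394 and 508 at 8 h and 1175 and 1227 at 4 h (−1.42 ± 0.13, 4.55e-05). In LA cells the median of the Wnt and Notch list was 0.18. Ccn5 changed there by 0.39, against 0.89 in CLA cells, and the difference between both changes was not called.

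Of the genes that feed back on ERK signalling, 6 of 16 were higher and none lower (median 0.29). The dual-specificity phosphatase gene Dusp4 had 245 and 281 at 8 h and 107 and 85.1 at 4 h (1.44 ± 0.14, adjusted p = 6.15e-05), and Dusp6 (0.96), Spry1 (0.89) and Spred1 (0.52) rose as well. The immediate early transcription factors gave 2 of 24 higher and 5 lower, with a median of −0.06, against a median of 0.26 in LA cells. Fos, an AP-1 subunit, had 42.8 and 55.6 at 8 h and 244 and 121 at 4 h (−1.78 ± 0.30, 0.00249), and Egr1 had 934 and 1143 against 2933 and 2092 (−1.26 ± 0.15, 2.86e-04). Both 8 h arrays were below both 4 h arrays, although the 4 h arrays of Fos were themselves far apart. Ier2 fell (−0.94, 8.68e-04). Junb was called lower (−0.57, 0.0453) but lost its call in 12 of 17 alternatives, and Jun (−0.073) and Fosl1 (−0.044) were not called. Myc rose, to 163 and 195 at 8 h against 109 and 104 at 4 h (0.74 ± 0.13, 0.00363). In LA cells the difference was −1.52 for Fos and −0.54 for Egr1.

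**Figure D4:**
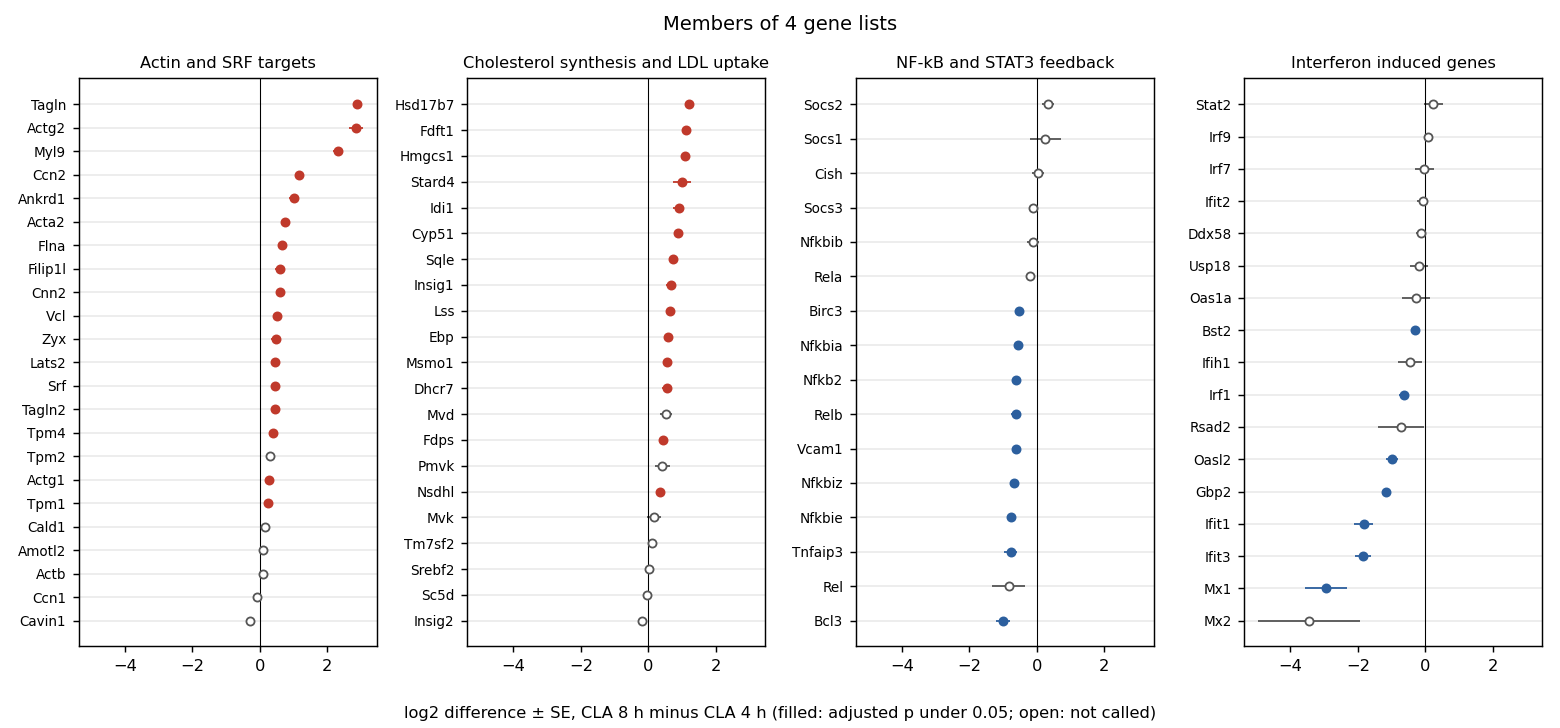
Log2 difference of CLA 8 h minus CLA 4 h, with its standard error as a bar, for each measured member of 4 gene lists; filled points have an adjusted p under 0.05 and open points do not. Called members of the actin and cholesterol lists are all to the right of 0, and those of the NF-kB and interferon lists all to the left.

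Genes of cholesterol synthesis and LDL uptake rose in 14 of 21 cases, with none lower and a median of 0.55. Hmgcs1, which makes HMG-CoA early in the pathway, had 2509 and 2403 at 8 h and 1102 and 1188 at 4 h (1.10 ± 0.077, adjusted p = 1.06e-05). Fdft1, squalene synthase, had 1642 and 1792 against 773 and 797 (1.13 ± 0.098, 4.08e-05), the sterol ketoreductase gene Hsd17b7 had 569 and 598 against 261 and 247 (1.19 ± 0.11, 5.36e-05) and Sqle, squalene epoxidase, had 1623 and 1784 against 1006 and 1049.7 (0.73 ± 0.076, 1.37e-04). The enzymes thus rose at early, middle and late steps of the pathway. The sterol sensor gene Insig1 rose with them, while Srebf2, which encodes SREBP2, stood at 0.021 and Insig2 at −0.17 without passing. Leaving out CLA 4 h replicate 1 or the intensity trend left 9 increases, and the list median stayed between 0.46 and 0.73 in all 17 alternatives. In LA cells 12 members were higher and none lower, with a median of 0.78. Of the 9 genes of cholesterol efflux and the liver X receptors, Abca1 was the 1 called; Abcg1, another exporter, had a difference of 0.76 (adjusted p = 0.191).

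Other lipid genes gave fewer calls. Of 18 genes of fatty acid and triglyceride synthesis, 4 were higher and 2 lower. Fasn, fatty acid synthase, had 984 and 1211 at 8 h and 779 and 743 at 4 h (0.52 ± 0.096, adjusted p = 0.00458), and Dgat2, which makes triglyceride, had 49.6 and 70.2 against 121 and 133 (−1.08 ± 0.19, 0.00377). Scd1 stood at −0.23 without a call. Fads1 was called lower (−0.30), but its probe sets disagree in sign, and it lost its call in 10 of 17 alternatives and turned in sign in 1. PPAR targets and fatty acid oxidation genes gave none higher and 2 of 22 (9.09%) lower, against 7.24% higher and 5.49% lower over all genes. Angptl4 had 2073 and 2747 at 8 h and 2499 and 2537 at 4 h (−0.077 ± 0.12), so that the groups overlap. Pdk4, the kinase that holds back pyruvate oxidation, had 247 and 282 against 350.1 and 366 (−0.44 ± 0.14, 0.0680), and Plin2, a lipid droplet coat gene, 2268 and 2557 against 1959 and 2196 (0.22 ± 0.088, 0.144). In neither did the arrays overlap, and neither passed. Cpt1a, the gate of mitochondrial fatty acid import, was called at −0.28, with another of its probe sets at 0.37. It lost its call in 10 of 17 alternatives and turned in sign in 1.

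Adipogenic transcription factors gave 1 of 22 higher, Ebf1, and 5 lower (median −0.22). Pparg was dim, with 11.9 and 18.5 at 8 h and 40.2 and 34.9 at 4 h (−1.23 ± 0.34, adjusted p = 0.0338), and lost its call in 7 of 16 alternatives. Zfp423, a factor of preadipocyte commitment, had 123 and 188 against 329.7 and 339.6 (−1.13 ± 0.20, 0.00365). Its level was lower on both 8 h arrays, as were those of Stat5a (−0.79), Rxra (−0.53) and Dlk1, the preadipocyte factor (−0.26). The call of Rxra was lost in 9 of 17 alternatives. Cebpb (−0.28, 0.0710) and Cebpd (0.30, 0.226) were not called. Ppara was not called in CLA cells, at 33.1 and 41.6 at 8 h and 30.2 and 37.4 at 4 h (0.14 ± 0.29). In LA cells it had 7.25 and 6.64 at 8 h, at background, against 33.8 on the 4 h array; the test of the difference between both changes gave an adjusted p of 0.199. Of fat cell storage and adipokine genes 2 of 15 were higher and 2 lower. Plin4, a lipid droplet coat gene, had 172 and 196 at 8 h and 456 and 432 at 4 h (−1.27 ± 0.13, 1.37e-04), and Fabp4, a fatty acid carrier, 299 and 249.6 against 457 and 473 (−0.76 ± 0.13, 0.00233). Fabp5, its relative in many cell types, was called higher (0.36) but lost its call in 8 of 17 alternatives. The fibroblast receptor gene Pdgfra fell to 2556 and 2406 at 8 h, against 4243 and 4174 at 4 h (−0.76 ± 0.067, 4.19e-05).

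Genes of the integrated stress response, the ATF4 programme that answers amino acid shortage and ER stress, were higher in 11 of 25 cases and lower in 2 (median 0.28). Chac1 and Mthfd2 are described above. Atf4 itself had 1866 and 1924 at 8 h and 1284 and 1167 at 4 h (0.63 ± 0.093, adjusted p = 0.00119), with both 8 h arrays higher. Aldh18a1, an enzyme of proline synthesis, had 1254 and 1397 against 660.5 and 663 (0.999 ± 0.082, 2.70e-05). Trib3 rose to 104 and 156 at 8 h, against 38.7 and 75.5 at 4 h (1.202 ± 0.29, 0.0185). Ddit3, which encodes the death-associated factor CHOP, was not called (0.20, 0.281), nor were Psat1 (−0.035) and Phgdh (−0.26) of serine synthesis. The lipoprotein receptor gene Vldlr fell, to 114 and 86.3 at 8 h against 308 and 244 at 4 h (−1.45 ± 0.19, 4.87e-04). The count of increases was 7 without CLA 4 h replicate 1 and 6 when only the compared arrays entered the fit.

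Genes of amino acid supply come next. Of 19 cytosolic aminoacyl-tRNA synthetases, which load amino acids on tRNA, 7 were higher and none lower (median 0.31), among them Gars (0.52), Tars (0.58), Farsb (0.59) and Iars (0.53). Among 13 amino acid transporters, 3 were higher and 1 lower. Of the increases, Slc3a2 lost its call in 10 of 17 alternatives, Slc38a4 lost it in 3, and Slc7a1 kept it in all 17. Slc7a1, the transporter of arginine and lysine, had 584 and 610.1 at 8 h and 235 and 248 at 4 h (1.30 ± 0.095, adjusted p = 1.29e-05). The exception, Slc1a5, which carries glutamine, had 165 and 193 against 356 and 353 (−0.98 ± 0.13, 4.71e-04). Of 24 ER chaperone and unfolded protein response genes 9 were higher and none lower (median 0.31). Creld2 had 480.5 and 652 at 8 h and 263 and 273 at 4 h (1.06 ± 0.13, 4.01e-04), and Herpud1, of ER-associated degradation, 918 and 1029.6 against 592 and 467 (0.88 ± 0.11, 4.98e-04). Hspa5, the central ER chaperone BiP, rose by less (0.38 ± 0.067, 0.00367). The ER count was 5 with arrays scaled to one common median and 4 without an intensity trend. Heat shock genes, cytosolic and mitochondrial, gave 2 of 16 higher and none lower, with a median of −0.01 whose sign turned in 8 of 17 alternatives. Glycolysis and hypoxia genes gave 8 of 20 higher and none lower (median 0.28), such as Pfkl (0.78) and the glucose transporter gene Slc2a1 (0.56), while Hk2, hexokinase 2, was not called (−0.49, 0.0582). Over the alternatives this list gave 3 to 12 higher and 0 to 2 lower.

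Most called inflammatory genes were lower at 8 h. Of 16 NF-kB and STAT3 feedback genes none was higher and 9 were lower (median −0.59). Nfkbia, the NF-kB inhibitor IkB-alpha, had 1728 and 1736 at 8 h and 2654 and 2498 at 4 h (−0.57 ± 0.0998, adjusted p = 0.00328). Vcam1, an adhesion molecule, had 1655 and 1675 against 2489.9 and 2658 (−0.63 ± 0.070, 1.85e-04), and Nfkbiz, an IkB-related co-regulator, 577 and 536 against 896 and 899 (−0.69 ± 0.091, 5.64e-04). All 3 were lower on both 8 h arrays. Tnfaip3, which encodes the ubiquitin-editing inhibitor A20 (−0.78), Nfkbie (−0.76), Relb (−0.62), Nfkb2 (−0.61) and Birc3 (−0.53) also fell, as did Bcl3, with 52.5 and 75.3 at 8 h and 120.3 and 135 at 4 h. Rela (−0.20) and the STAT3 target Socs3 (−0.10) were not called. The count depended on the scaling. It was 4 with arrays scaled to one common median, 0 with the values as deposited, and 5 without either CLA 4 h replicate, while the list median stayed negative in all 17 alternatives (−0.62 to −0.40). In LA cells 4 members were lower and none higher.

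Cytokines and chemokines gave 6 of 14 lower and 1 higher (median −0.52), and in LA cells also 6 lower and 1 higher, with a median of −0.04. Besides Cxcl1 and Cxcl5, the monocyte chemokines Ccl2 and Ccl7 fell. Ccl7 had 1198 and 1159 at 8 h and 2315 and 2183 at 4 h (−0.93 ± 0.14, adjusted p = 0.00150), and Ccl2 had 3882 and 3215 against 5487 and 5414 (−0.63 ± 0.12, 0.00573). The macrophage growth factor gene Csf1 fell as well (−0.62), and Cxcl10, an interferon-driven chemokine, fell to 12.7 and 15.1 at 8 h against 81.2 and 82.1 at 4 h (−2.41 ± 0.40, 0.00246). Il6 went the other way, with 1825 and 1212 at 8 h and 1029 and 958 at 4 h (0.58 ± 0.14, 0.0222), and lost its call in 6 of 17 alternatives. The prostaglandin genes were split as well. Ptgs2, cyclooxygenase 2, rose (0.74 ± 0.16, 0.0116), and Ptges, the prostaglandin E synthase, had 57.5 and 84.1 at 8 h and 220.0 and 223 at 4 h (−1.65 ± 0.17, 1.37e-04). The summed macrophage markers, given above, were also lower at 8 h, led by Cd14, with 375 and 471 at 8 h and 535 and 564 at 4 h, while Itgam, Mpeg1 and Tyrobp were at or below background. Fcer1g, another macrophage marker, went the other way without a call, with 24.0 and 12.3 at 8 h and 6.43 and 5.75 at 4 h. Their part in these results was not tested.

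Of 17 interferon induced genes none was higher and 7 were lower (median −0.46). Ifit1 had 74.5 and 71.3 at 8 h and 275 and 255 at 4 h (−1.83 ± 0.29, adjusted p = 0.00169), and Ifit3 had 58.9 and 59.9 against 237 and 205 (−1.86 ± 0.24, 4.86e-04). Both are RNA-binding antiviral proteins, and both were lower on each 8 h array. The guanylate-binding protein gene Gbp2 had 132 and 146 against 313 and 308 (−1.16 ± 0.13, 1.58e-04). Mx1, an antiviral GTPase, was at background at 8 h, with 7.62 and 1.44, against 53.8 and 31.8 at 4 h, and was therefore at least 4.03-fold lower (0.00927). Irf1 fell (−0.65) and Irf7, Irf9 and Stat2 were not called. Without CLA 4 h replicate 1 the count was 4. In LA cells 6 members were lower and none higher, with a median of −0.53.

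Clock genes gave 1 of 15 higher and 4 lower (median −0.14). Dbp, a clock output factor, had 16.1 and 16.3 at 8 h and 54.1 and 44.4 at 4 h (−1.50 ± 0.30, adjusted p = 0.00725), and its relative Tef had 146 and 165 against 336 and 263 (−0.93 ± 0.16, 0.00319). Nr1d2, the repressor REV-ERB beta, had 239 and 176 against 378 and 414 (−0.94 ± 0.15, 0.00208), and Per1 fell by 0.86 ± 0.22 (0.0269) but lost its call in 8 of 17 alternatives. Bhlhe41, a repressor of the clock, was at background at 4 h, with 1.53 and 0.95, against 17.0 and 26.5 at 8 h. It was therefore at least 2.15-fold higher at 8 h (0.00583), while Per2 (−1.51) was not called. In LA cells Bhlhe41 had 12.36 and 22.25 at 8 h and 12.57 at 4 h, so that the groups overlap. Metallothioneins, which glucocorticoid and zinc induce, fell. Mt2 had 641 and 683 at 8 h and 1759 and 1849.7 at 4 h (−1.44 ± 0.081, 2.42e-06), and Mt1 was lower by a smaller margin (−0.56 ± 0.062, 1.85e-04).

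Cell cycle genes were mixed. Of 23 regulators of G1, 2 were higher and 4 lower (median −0.08). Ccnd1, cyclin D1, had 373 and 379 at 8 h and 633 and 648 at 4 h (−0.77 ± 0.090, adjusted p = 2.70e-04), and Cdk6, its kinase partner, 425 and 391.9 against 711 and 706 (−0.79 ± 0.11, 6.29e-04). Both were lower on both 8 h arrays. Cdkn2c, an inhibitor of that kinase, rose (0.73). None of 24 mitosis genes passed in limma, with a median of −0.14 that turned positive in 1 of 17 alternatives, and 3 of 29 replication genes (10.3%) were higher, against 7.24% over all genes, with 0 to 4 over the alternatives. Of 23 p53 and apoptosis genes 4 were higher and 2 lower (median −0.11). Trp53inp1 had 398 and 336 at 8 h and 762 and 738 at 4 h (−1.03 ± 0.16, 0.00180), the kinase gene Plk2 had 1800.3 and 1997 against 971 and 877 (1.04 ± 0.081, 1.95e-05), and Cdkn1a (−0.37, 0.0550) and Mdm2 (−0.13) were not called. Ribosome biogenesis gave 6 of 40 (15%) higher and none lower, against 7.24% and 5.49% over all genes, and 0 to 9 higher and 0 to 3 lower over the alternatives, and the respiratory chain 0 of 23 higher and 1 lower.

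Among NRF2 and glutathione genes 2 of 19 were higher and 4 lower, and among iron handling genes 1 of 10 was higher and 3 lower. Hmox1, heme oxygenase, is in both lists and had 1084 and 1079 at 8 h and 1675 and 1769 at 4 h (−0.67 ± 0.10, adjusted p = 0.00139). Slc40a1, the iron exporter ferroportin, had 104 and 101 against 201 and 218 (−1.02 ± 0.15, 0.00128), and Sqstm1, the autophagy receptor p62, 2124 and 2172 against 4146 and 3955 (−0.91 ± 0.088, 6.95e-05). All 3 were lower on both 8 h arrays. Sqstm1 is in neither list but in that of autophagy and lysosome genes. Of its 21 members 2 (9.52%) were higher, Atg5 and Map1lc3a, and 3 (14.3%) lower, with a median of −0.07. Gsta4 fell too (−0.85), and Txnrd1, thioredoxin reductase, was called higher (0.32) but lost its call in 8 of 17 alternatives. Of insulin and IGF genes 3 of 22 were higher and 2 lower, with Irs1, the insulin receptor substrate, at 844 and 864 at 8 h and 457 and 447 at 4 h (0.92 ± 0.095, 1.25e-04) and Igfbp4, an IGF binding protein, at 520.4 and 610.3 against 1034 and 1056 (−0.89 ± 0.11, 3.72e-04).

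**Figure D5:**
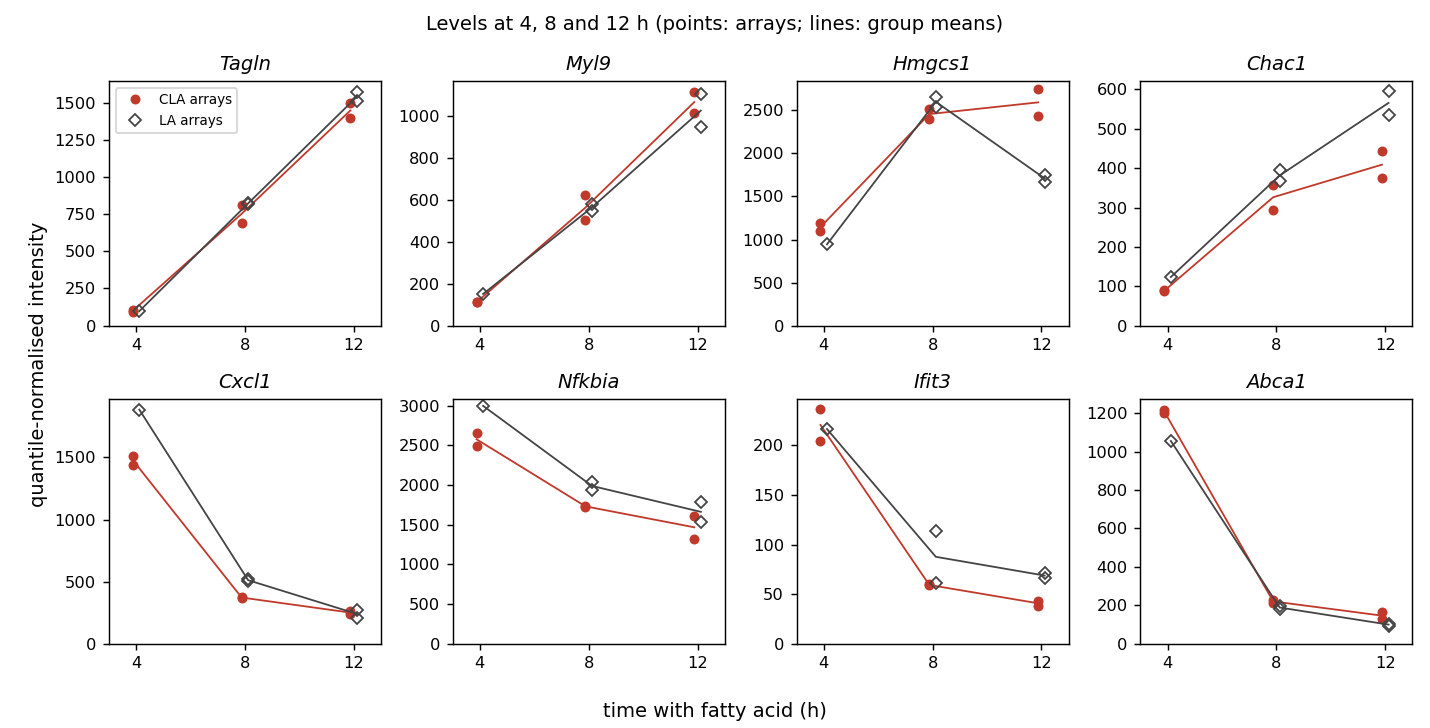
Normalised intensity of 8 genes at 4, 8 and 12 h, with 1 point per array (filled circles for CLA, open diamonds for LA) and lines through the group means. Tagln, Myl9 and Chac1 are higher at each later time and Cxcl1, Nfkbia, Ifit3 and Abca1 lower, in both fatty acids, while Hmgcs1 differs between CLA and LA at 12 h.

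The 12 h arrays place these changes in sequence. In CLA cells Tagln averaged 99.9 ± 9.23 at 4 h, 752 ± 83.1 at 8 h and 1447 ± 70.2 at 12 h (mean ± SD, n = 2 each), so the rise between 4 and 8 h continued to 12 h. Cxcl1 averaged 1478 ± 50.7, 373 ± 7.95 and 251 ± 17.8 at 4, 8 and 12 h, and Abca1 1208 ± 11.8, 221 ± 10.7 and 147 ± 27.2, so for these 2 most of the loss lay between 4 and 8 h. Hmgcs1 averaged 1145 ± 60.7 at 4 h, 2456 ± 75.6 at 8 h and 2592 ± 223 at 12 h in CLA cells. In LA cells Hmgcs1 was 944 at 4 h, 2544 and 2652 at 8 h and 1669 and 1749.5 at 12 h, so that both LA 12 h arrays lay below both CLA 12 h arrays, a difference not tested here.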

How the data were processed

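RNA was Trizol extracted, turned into biotinylated cRNA and hybridised to 1-colour Affymetrix arrays, per the labels' protocols. The deposited value table holds 1 linear, background-subtracted intensity per probe set and array, made by software not given in the sources used here. Ratio tables that the authors deposited compare fatty acids within a time and were not used.

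Intensities were quantile normalised over 11 arrays, floored at 0, and log2(value + 1.84) was taken, which understates changes of dim genes. Probe sets averaging above 7.81 were kept, and the brightest with 1 gene symbol stood for a gene, giving 12498. Promoters came from RefSeq. One mean per group was fitted in limma 3.58.1 (R 4.3.3), checked on simulated data, with an intensity trend in the prior spread (5 residual and 6.08 prior degrees of freedom) and Benjamini-Hochberg adjustment. The LA 4 h array, being alone, was taken to vary as other groups do. A group was at background when none of its arrays exceeded 8.89, the 95th percentile over 27 bacterial controls without spike. The least fold is then the bright group's mean of log2(value + 1.84) minus log2(8.89 + 1.84), turned back into a ratio. Genes were named as the 15 largest called increases and decreases with arrays apart and a mean of at least 100, up to 4 members of smallest p per list, a fixed set of genes whatever their result, and the 5 called in the CLA against LA difference. List members outside this rule were named after their values were seen. The members and lists were chosen with earlier results of these data known. The alternatives changed scaling, offset, filter, probe set rule, spread model, arrays fitted, a replicate block, an array covariate, and each replicated array of 4 and 8 h in turn.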

Additional observations from a re-analysis of the deposited data

Results flagged for a closer look

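In 5 genes the change from 4 to 8 h differed between CLA and LA cells by limma's interaction term, given here as the CLA change minus the LA change on the log2 scale. Shmt1, a folate enzyme, had a difference of −5.461, Ptpdc1 of −5.14 and Fam160a1 of −4.378. These 3 were at 0 on the single LA 4 h array after values below 0 were set to 0, while CLA 4 h arrays had 58.2 and 76.5 for Shmt1, 51.7 and 54.7 for Ptpdc1, and 32.9 and 21.0 for Fam160a1. Dnajc12, a co-chaperone, had a difference of −2.275, with 15.0 on the LA 4 h array against 126.8 and 106 at 8 h in LA cells. Fbxo36 had a difference of 2.355, with 729.9 on the LA 4 h array, against 347 and 354 at LA 8 h. CLA cells had 360 and 378 at 8 h and 163 and 136 at 4 h for Fbxo36. No other array repeats the LA 4 h value in any of the 5, so whether they belong to the array or to the condition cannot be told apart. Shmt1, Ptpdc1 and Fbxo36 have other probe sets, whose LA 4 h values were not compared. In CLA cells the other probe set of Fbxo36 changed by 0.16, against 1.30 for the one used. Those of Shmt1 changed by −0.72 and −0.34, against 0.031. No group in these comparisons has 4 or more arrays, so none was tested for a single outlying array.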

How the results depend on the processing

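Counts of called genes depended on the processing more than the directions of named genes did. The balance of increases and decreases depended on the scaling between arrays. With the values as deposited, 34.2% of the genes called in LA cells were higher, against 60.6% in the main fit. The median LA change over all genes was then −0.17, against 0.03. In CLA cells 1591 genes were called. The count was 876 with median scaling of the arrays, 773 with the values as deposited (81.1% higher, against 56.9%), 951 without an intensity trend and 964 with only the compared arrays in the fit. Leaving out 1 array gave 722 to 1965, with 722 without CLA 4 h replicate 1, 810 without CLA 4 h replicate 2, and 574 higher and 715 lower without CLA 8 h replicate 2. In LA cells, against 1491, the count was 448 with the values as deposited, 984 without a filter, 730 without a trend, 2920 with only the compared arrays and 915 with the array median as a covariate. It ran from 562 (without LA 8 h replicate 1) to 2054 when 1 array was left out, with 594 without LA 8 h replicate 2. Median scaling left 1379, of which 85.7% were higher, against 60.6%. For the difference between CLA and LA changes, against 5, it was 18 with median scaling, 21 as deposited, 61 without a filter, 3 without a trend, 12 with only the compared arrays, 3 with the covariate, and 3 to 7 when 1 array was left out, the 3 arising without CLA 8 h replicate 1 or LA 8 h replicate 1. The other alternatives kept each count within 1.5 times. Same-numbered replicates did not deviate together (correlation 0.018 between CLA 4 h and CLA 8 h), and the fit with a replicate block called 1628 genes, 1528 of them shared, with 1225 in LA cells and 6 for the difference.

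Among changes of named genes in CLA cells, 2463 of the values kept direction and call, 245 lost the call, 11 gained it and 13 turned in sign. Jun turned to 0.0038 with median scaling and 0.13 with the values as deposited, where Fosl1 was 0.10 and Angptl4 0.086. Fosl1 was also 0.051 with the covariate and 0.013 without CLA 4 h replicate 2. When 1 array was left out, Fosl1 ran from −0.36 (without CLA 8 h replicate 2) to 0.27 (without CLA 8 h replicate 1), Angptl4 from −0.28 to 0.13 and Ppara from −0.018 to 0.29 under the same omissions. With probe sets of a gene averaged, Cpt1a was 0.0060, Fads1 0.073 and Ddit3 −0.41. Ppara was −0.0074 without CLA 4 h replicate 1 and −0.018 without CLA 8 h replicate 2. The cause was not tested. Of these 7 genes only Cpt1a and Fads1 were called. Signal over background limits dim genes such as Pparg and Mx1.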
